A study of Mus musculus with 4 samples.

Results

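The insulin-like growth factor (IGF) axis was read in 4T1Ch9 tumors after MEK inhibition (MEKi) with trametinib or after vehicle. Its members were the 10 genes Igf1, Igf2, Igf1r, Irs1, Igfbp2, Igfbp3, Igfbp4, Igfbp5, Igfbp6 and Igfbp7, taken as every probe set whose sole gene symbol in the platform annotation was a listed gene. This gave 21 of the 45037 probe sets tested and 9 of the 10 genes, and Igfbp7 was not analysed here. The 4T1Ch9 line is a cherry-tagged triple-negative breast cancer (TNBC) line of Balb/c origin, and total RNA came from whole tumors. The MEKi tumors (2 arrays) received trametinib, an inhibitor of the kinases MEK1 and MEK2, by oral gavage at 1 mg/kg each day for 7 days. The vehicle tumors (2 arrays) received the polyethylene glycol and solutol carrier alone for the same 7 days. In both groups 50000 cells had been placed in the mammary fat pad of female wild-type Balb/c mice, aged between 6 and 8 weeks, and tumors had 10 days to establish. All tumors thus came from 1 cell line in immunocompetent hosts, and neither the labels nor the methods say whether each array is from its own mouse. The p-values therefore cover the spread between these arrays alone, which may be technical.

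IGF1 and IGF2 are secreted growth factors that bind the receptor tyrosine kinase IGF1R, which phosphorylates the adaptor IRS1 and so feeds the PI3K/AKT and the RAS/MEK/ERK pathways. The IGF binding proteins are secreted carriers that hold IGFs away from the receptor or release them after cleavage, and several also act without IGF. In breast tissue, IGFs come largely from stromal cells, and both epithelium and stroma carry the receptor. The growth hormone receptor drives Igf1 transcription, above all in liver, and Igf2 is an imprinted fetal growth factor.

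The genes lie on several mouse chromosomes of build GRCm38.p6. Igf1r (chr7:67952257-68233668) and Igf2 (chr7:142650768-142666816) share chromosome 7, and Igfbp3 (chr11:7206086-7215498) and Igfbp4 (chr11:99040005-99052655) share chromosome 11. Igfbp2 (chr1:72824480-72852474) and Igfbp5 (chr1:72858065-72874865) are neighbours on opposite strands with 5590 bases between them, and Irs1 (chr1:82233105-82291439) lies on the same chromosome. Igf1 (chr10:87858265-87937047) and Igfbp6 (chr15:102144186-102149512) stand alone. The 250 bases before a RefSeq start are shown for Igf1r, Igfbp3 and Igfbp4, which had the same array order. They are also shown for Igfbp2, whose profile ran the other way. For Igfbp3 and Igfbp4 that start lies inside the gene's full span. Igf2 and Irs1 also had that array order, and Igfbp6 had the same high arrays, but their windows are not shown. The sequences are from RefSeq, read 5′ to 3′ on the gene's strand, and capitals mark matches on either strand to the GC box letters GGGCGG. The TATA box letters TATAAA and the E-box letters CACGTG are marked in the same way.
Igf1r, chr7:67952007-67952256, plus strand: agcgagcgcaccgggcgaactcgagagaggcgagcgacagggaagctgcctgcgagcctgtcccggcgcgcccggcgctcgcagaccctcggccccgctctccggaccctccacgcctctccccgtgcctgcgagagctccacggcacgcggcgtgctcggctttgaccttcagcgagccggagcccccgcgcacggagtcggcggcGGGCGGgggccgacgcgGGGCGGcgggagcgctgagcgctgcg
Igfbp3, chr11:7213924-7214173, minus strand: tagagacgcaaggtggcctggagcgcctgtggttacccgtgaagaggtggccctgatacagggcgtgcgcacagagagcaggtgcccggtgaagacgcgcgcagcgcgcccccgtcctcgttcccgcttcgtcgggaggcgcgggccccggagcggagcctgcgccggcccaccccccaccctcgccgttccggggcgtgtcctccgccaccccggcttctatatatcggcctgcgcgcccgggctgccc
Igfbp4, chr11:99040994-99041243, plus strand: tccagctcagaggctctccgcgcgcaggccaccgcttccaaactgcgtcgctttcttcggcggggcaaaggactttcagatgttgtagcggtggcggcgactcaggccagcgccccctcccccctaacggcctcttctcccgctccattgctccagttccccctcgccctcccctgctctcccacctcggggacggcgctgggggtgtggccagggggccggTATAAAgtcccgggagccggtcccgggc
Igfbp2, chr1:72824230-72824479, plus strand: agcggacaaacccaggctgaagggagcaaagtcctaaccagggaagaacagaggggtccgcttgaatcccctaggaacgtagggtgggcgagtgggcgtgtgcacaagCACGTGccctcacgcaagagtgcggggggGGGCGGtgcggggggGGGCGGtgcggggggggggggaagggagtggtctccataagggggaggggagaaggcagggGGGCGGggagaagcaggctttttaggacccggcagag

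The windows shown were rich in G and C. GC content was 77.6% for Igf1r, 73.2% for Igfbp3, 69.2% for Igfbp4 and 67.2% for Igfbp2, against a median of 52.4% over 32851 mouse windows of the same length. They held 42, 32, 22 and 14 CpG pairs in that gene order, against a median of 6. Among windows not shown, GC content was 72.4% with 28 CpG pairs for Irs1 and 49.6% with 7 for Igfbp6. A GC box occurred 2 times in the Igf1r window and 3 times in that of Igfbp2, and 32.7% of all windows hold it. The Igfbp4 window held the TATA box letters 1 time (12.4% of all windows), and the Igfbp2 window held the E-box letters 1 time (6.02%). The letters TGACTCA of an AP-1 site, which 4.46% of all windows hold, were found among the 14 windows of the 10 genes only upstream of a further Igfbp2 start (chr1:72825137-72825386). The letters CCGGAAG of an ETS site (6.91% of all windows) and GTAAACA of a FOXO site (3.17%) were in none of the 14. The 4 Igf2 windows differed among themselves, with GC contents of 66.0%, 68.8%, 47.6% and 50.8%.

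The arrays were most alike across the labels. Over the 45037 probe sets (not independent replicates), Pearson's r was 0.927 for both MEKi arrays and 0.959 for both vehicle arrays, whereas MEKi 1 and vehicle 2 reached 0.992 and MEKi 2 and vehicle 1 reached 0.978. Genes that report MAPK signaling, the pathway that trametinib blocks, had a median log2 expression of 8.07 in MEKi 1 and 10.59 in MEKi 2, against 9.99 in vehicle 1 and 8.98 in vehicle 2 (17 genes). Among them Dusp6, an ERK phosphatase, read 9.60 in MEKi 1 and 12.30 in MEKi 2, against 12.02 in vehicle 1 and 10.96 in vehicle 2. Lymph node markers also split the arrays across the labels, with MEKi 1 and vehicle 2 high, and had a median over 8 of 8 stromal and high endothelial venule genes of 8.54 in MEKi 1 and 4.01 in MEKi 2, against 4.00 in vehicle 1 and 8.38 in vehicle 2. In 0 of the 17 MAPK output genes and 0 of the 8 lymph node genes did both MEKi arrays lie above, or both below, the vehicle arrays. Among all probe sets, both MEKi arrays lay above in 12.1% and below in 9.86%.

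Other lists ran in part with the labels. Both MEKi arrays lay above both vehicle arrays in 4 of the 6 neutrophil genes measured (of 8 listed) and below them in 1, and 3 of the 6 had an unadjusted p under 0.05, although 0 were called. Among all probe sets these shares were 12.1% above, 9.86% below and 0.901% with an unadjusted p under 0.05 in limma. S100a8, a calcium-binding protein of neutrophil granulocytes, read 9.99 in MEKi 1 and 11.10 in MEKi 2, against 6.17 in vehicle 1 and 7.70 in vehicle 2, a fold change of 3.61 ± 0.71 (SE, adjusted p = 1 in limma). Its partner S100a9 read 10.29 in MEKi 1 and 11.87 in MEKi 2, against 7.09 in vehicle 1 and 7.92 in vehicle 2. Mmp9, of the same list, went the other way. It read 7.37 in MEKi 1 and 8.89 in MEKi 2, against 11.23 in vehicle 1 and 9.39 in vehicle 2. Tumor epithelial genes had a median of 6.38 in MEKi 1 and 6.39 in MEKi 2, against 7.34 in vehicle 1 and 7.03 in vehicle 2, with a lower MEKi mean in 12 of 13, an unadjusted p under 0.05 in 4 and 0 called. Both MEKi arrays were below both vehicle arrays in 8 of the 13, against 9.86% of all probe sets. The keratin gene Krt18 was well above the floor on every array, at 10.43 in MEKi 1 and 11.87 in MEKi 2, against 12.78 in vehicle 1 and 11.78 in vehicle 2. In this gene MEKi 2 was thus not below vehicle 2. Krt7 was lower in both MEKi arrays. It read 7.89 in MEKi 1 and 7.39 in MEKi 2, against 9.86 in vehicle 1 and 8.50 in vehicle 2. Krt19, another keratin gene, was near the floor in MEKi 2, at 8.91 in MEKi 1 and 4.52 in MEKi 2, against 9.36 in vehicle 1 and 9.42 in vehicle 2. Epcam, an epithelial adhesion molecule, was likewise lowest in MEKi 2, at 9.06 in MEKi 1 and 6.54 in MEKi 2, against 8.79 in vehicle 1 and 9.23 in vehicle 2. Its MEKi 1 value was above that of vehicle 1. Some measures thus ran with the labels and others across them, and whether any label was exchanged was not tested. The labels were kept as given, and each fold change below holds for MEKi against vehicle only as far as they are right.

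Values are log2 expression from the robust multi-array average (RMA), and array medians lay between 4.98 and 5.14 with 25th percentiles between 3.85 and 3.88, so readings near 4 are close to the floor. A gene with several probe sets was represented by that with the highest mean. A fold change is the MEKi mean minus the vehicle mean on the log2 scale with its standard error (SE, n = 2 arrays each), from a limma fit by label over all probe sets, and every adjusted p given is from that fit. These are bulk tumors, so fewer cells of a type and less RNA per cell cannot be told apart.

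**Figure D1:**
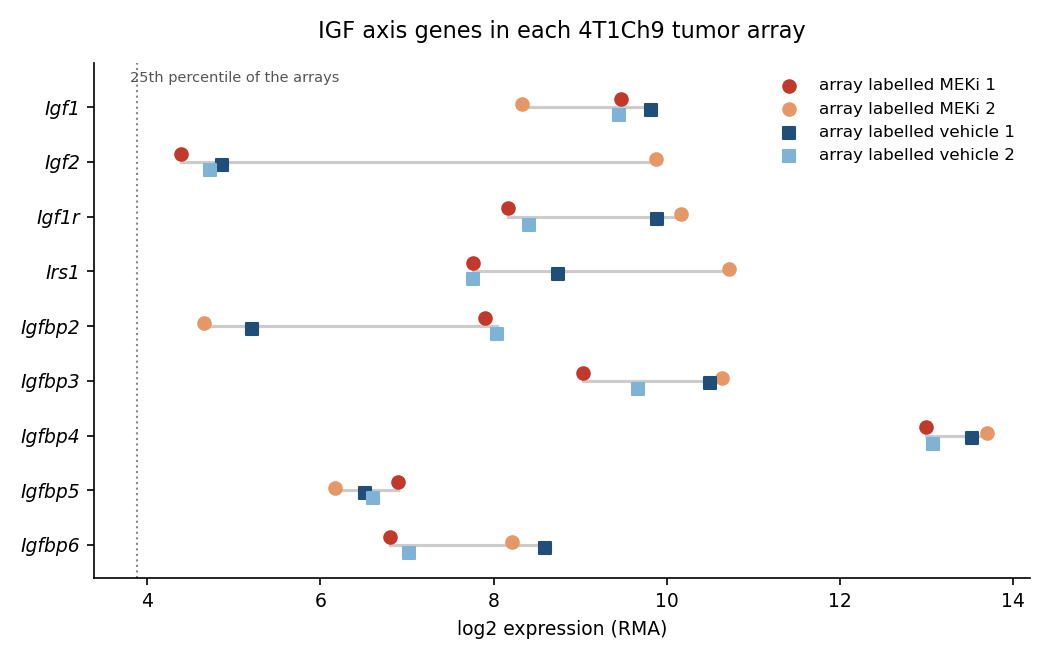
Log2 expression (RMA, horizontal axis) of the 9 IGF axis genes, 1 probe set a gene, with 1 point for each array (circles MEKi, squares vehicle, as labelled), a grey line over the range and a dotted line at the 25th percentile of the arrays. The points of both labels overlap in each gene, and Igf2 has the widest range, from 4.39 in MEKi 1 to 9.87 in MEKi 2.

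Of the ligands, Igf1 was read by 4 probe sets that gave the same array order. Probe set 1437401_PM_at, which stood for the gene, read 9.48 in MEKi 1 and 8.33 in MEKi 2, against 9.82 in vehicle 1 and 9.45 in vehicle 2. Both vehicle arrays were thus at or near the level of MEKi 1, and MEKi 2 lay below the other 3. Probe set 1434413_PM_at read 9.10 in MEKi 1 and 7.89 in MEKi 2, against 9.32 in vehicle 1 and 8.83 in vehicle 2. Probe set 1452014_PM_a_at read 8.34 in MEKi 1 and 7.48 in MEKi 2, against 8.54 in vehicle 1 and 8.13 in vehicle 2. Probe set 1419519_PM_at read 7.70 in MEKi 1 and 6.83 in MEKi 2, against 7.71 in vehicle 1 and 7.58 in vehicle 2. The order vehicle 1, MEKi 1, vehicle 2, MEKi 2 from high to low held in 4 of 4 probe sets. The fold change of Igf1 was −0.73 ± 0.47 (SE, adjusted p = 1), with the other probe sets as close to 0 as −0.38. Igf1 was the single gene of the 9 whose fold change kept its sign when any 1 array was left out, and without MEKi 2 it was −0.16.

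The median levels of markers of fibroblasts and adipocytes, cells that make Igf1 in the mammary fat pad, were also lowest in MEKi 2. The median of 13 of 13 fibroblast genes was 9.07 in MEKi 1 and 7.73 in MEKi 2, against 9.89 in vehicle 1 and 9.55 in vehicle 2, and their summed level on the log2 scale ranged between 13.55 and 14.17 in the MEKi arrays and between 14.36 and 14.54 in the vehicle arrays. For 6 of 7 adipocyte genes the median was 9.52 in MEKi 1 and 6.97 in MEKi 2, against 10.57 in vehicle 1 and 10.06 in vehicle 2, and the summed level ranged between 11.42 and 12.74 in the MEKi arrays and between 13.38 and 13.58 in the vehicle arrays. Adipoq, the adipocyte hormone adiponectin, read 9.77 in MEKi 1 and 5.99 in MEKi 2, against 11.00 in vehicle 1 and 10.44 in vehicle 2. Both MEKi arrays were below both vehicle arrays in 7 of the 13 fibroblast genes and in 5 of the 6 adipocyte genes. Of all probe sets, 9.86% were so. Not all fibroblast genes read in this way, as Dcn, which encodes the matrix proteoglycan decorin, read 11.55 in MEKi 1 and 11.66 in MEKi 2, against 11.21 in vehicle 1 and 11.53 in vehicle 2. Pdgfra (8.49) and Col6a1 (11.78) were also highest in MEKi 2. Of the adipocyte genes, Pparg was lowest in MEKi 1, at 5.69. The macrophage and monocyte median, given below, was lowest in MEKi 1 as well. The part of these cells in the Igf1 values was not tested.

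Igf2 stood out on a single array. Probe set 1448152_PM_at read 4.39 in MEKi 1 and 9.87 in MEKi 2, against 4.87 in vehicle 1 and 4.73 in vehicle 2. MEKi 2 was 5.15 log2 units above vehicle 2 and 5.01 above vehicle 1, while MEKi 1 was the lowest of the 4. This range of 5.48 was wider than that of 99.7% of the 17097 genes with a probe set. Probe set 1415931_PM_at, whose readings were all near the floor, gave 3.42 in MEKi 1 and 4.08 in MEKi 2, against 3.51 in vehicle 1 and 3.55 in vehicle 2. Both probe sets were highest in MEKi 2, but the range of 1415931_PM_at was only 0.67. The fold change by label was 2.34 ± 2.01 (SE, adjusted p = 1) and turned to −0.40 without MEKi 2.

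The receptor Igf1r split the arrays across the labels. Probe set 1452982_PM_at read 8.16 in MEKi 1 and 10.16 in MEKi 2, against 9.88 in vehicle 1 and 8.41 in vehicle 2. MEKi 2 and vehicle 1 were high and MEKi 1 and vehicle 2 were low, so the means of the labels nearly met. Probe set 1428967_PM_at read 7.68 in MEKi 1 and 9.81 in MEKi 2, against 9.45 in vehicle 1 and 7.84 in vehicle 2. Probe set 1426565_PM_at read 6.16 in MEKi 1 and 8.36 in MEKi 2, against 7.60 in vehicle 1 and 6.73 in vehicle 2. Both gave the array order of 1452982_PM_at. Probe set 1452108_PM_at was near the floor, at 3.95 in MEKi 1 and 4.78 in MEKi 2, against 4.02 in vehicle 1 and 3.63 in vehicle 2. The fold change of Igf1r was 0.02 ± 0.92 (SE, adjusted p = 1), which leaves room for a change of either sign, and it was −0.98 without MEKi 2 and −0.72 without vehicle 2.

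Irs1, the docking protein that couples the receptor to PI3K, had 1 probe set. It read 7.76 in MEKi 1 and 10.72 in MEKi 2, against 8.74 in vehicle 1 and 7.76 in vehicle 2. MEKi 2 was 1.97 log2 units above vehicle 1, the array next to it, and MEKi 1 and vehicle 2 were level. Its range of 2.96 was wider than that of 97% of genes. The fold change was 0.98 ± 1.15 (SE, adjusted p = 1) and turned to −0.50 without MEKi 2.

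Among the binding proteins, Igfbp2 had the widest range and ran against Igfbp3, Igfbp4 and Igfbp6. Probe set 1454159_PM_a_at read 7.90 in MEKi 1 and 4.65 in MEKi 2, against 5.21 in vehicle 1 and 8.04 in vehicle 2. MEKi 1 and vehicle 2 were high and the other 2 arrays were close to the array medians, a range of 3.39 that was wider than that of 98.1% of genes. MEKi 1 was 2.69 above vehicle 1, whereas MEKi 2 was 3.39 below vehicle 2. The fold change by label was −0.35 ± 1.58 (SE, adjusted p = 1) and turned to 1.27 without MEKi 2 and to 1.06 without vehicle 2. Igfbp5, its neighbour in the genome, had a narrow range, with 6.90 in MEKi 1 and 6.17 in MEKi 2, against 6.52 in vehicle 1 and 6.61 in vehicle 2 (1422313_PM_a_at). MEKi 1 was its highest array and MEKi 2 its lowest, and both vehicle arrays lay between. Its fold change was −0.03 ± 0.31 (SE, adjusted p = 1), and it was 0.34 without MEKi 2 and 0.02 without vehicle 2.

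Lymphocyte and lymph node markers had the same high and low arrays as Igfbp2. The median of 7 of 8 B cell genes was 9.70 in MEKi 1 and 4.17 in MEKi 2, against 4.15 in vehicle 1 and 9.48 in vehicle 2, and their summed level ranged between 8.40 and 14.17 in the MEKi arrays and between 9.14 and 13.70 in the vehicle arrays. For 8 of 9 T cell genes the median was 9.91 in MEKi 1 and 5.52 in MEKi 2, against 6.26 in vehicle 1 and 9.88 in vehicle 2, with a summed level between 8.55 and 13.19 in the MEKi arrays and between 9.45 and 13.15 in the vehicle arrays. The summed level of the lymph node stroma and high endothelial venule genes ranged between 7.14 and 13.68 in the MEKi arrays and between 7.99 and 13.43 in the vehicle arrays. Glycam1, a ligand of L-selectin made by high endothelial venules, read 12.27 in MEKi 1 and 3.50 in MEKi 2, against 3.73 in vehicle 1 and 12.05 in vehicle 2, so that it was at the floor in MEKi 2 and vehicle 1. The part of these cells in the Igfbp2 values was not tested.

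Igfbp3, the main IGF carrier of serum, had the array order of Igf1r. Probe set 1423062_PM_at read 9.03 in MEKi 1 and 10.64 in MEKi 2, against 10.50 in vehicle 1 and 9.67 in vehicle 2. The pair MEKi 2 and vehicle 1 lay within 0.14 of each other and above both other arrays. Its fold change was −0.25 ± 0.68 (SE, adjusted p = 1) and turned to 0.56 without MEKi 1 and to 0.17 without vehicle 1. Igfbp6, a carrier that prefers IGF2, read 6.80 in MEKi 1 and 8.21 in MEKi 2, against 8.59 in vehicle 1 and 7.03 in vehicle 2 (1417933_PM_at). The same 2 arrays were high, here with vehicle 1 above MEKi 2. Its fold change was −0.30 ± 0.79 (SE, adjusted p = 1) and turned to 0.40 without MEKi 1 and to 0.48 without vehicle 1.

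Igfbp4, an inhibitory carrier that the protease PAPP-A cleaves, was read by 6 probe sets with the same array order in 6 of 6. Probe set 1437405_PM_a_at, which stood for the gene, read 12.99 in MEKi 1 and 13.70 in MEKi 2, against 13.52 in vehicle 1 and 13.07 in vehicle 2. Probe set 1437406_PM_x_at read 12.38 in MEKi 1 and 13.36 in MEKi 2, against 13.15 in vehicle 1 and 12.57 in vehicle 2. Probe set 1423756_PM_s_at read 12 in MEKi 1 and 13.25 in MEKi 2, against 12.91 in vehicle 1 and 12.36 in vehicle 2. MEKi 2 was the highest and MEKi 1 the lowest array each time. Probe set 1423757_PM_x_at read 11.27 in MEKi 1 and 12.85 in MEKi 2, against 12.41 in vehicle 1 and 11.50 in vehicle 2. Probe set 1421992_PM_a_at read 10.11 in MEKi 1 and 12.26 in MEKi 2, against 11.67 in vehicle 1 and 10.38 in vehicle 2. Probe set 1421991_PM_a_at read 8.61 in MEKi 1 and 11.29 in MEKi 2, against 10.83 in vehicle 1 and 8.94 in vehicle 2. The range over the arrays widened as the mean level of the probe set fell, from 0.71 for 1437405_PM_a_at to 2.68 for 1421991_PM_a_at. The probe set that stood for the gene thus had its highest level and its narrowest range. Whether differences are compressed near the top of the scale was not tested. The fold change was 0.05 ± 0.35 (SE, adjusted p = 1), lay between −0.01 and 0.16 over the 6 probe sets, and turned to −0.31 without MEKi 2 and to −0.17 without vehicle 2.

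**Figure D2:**
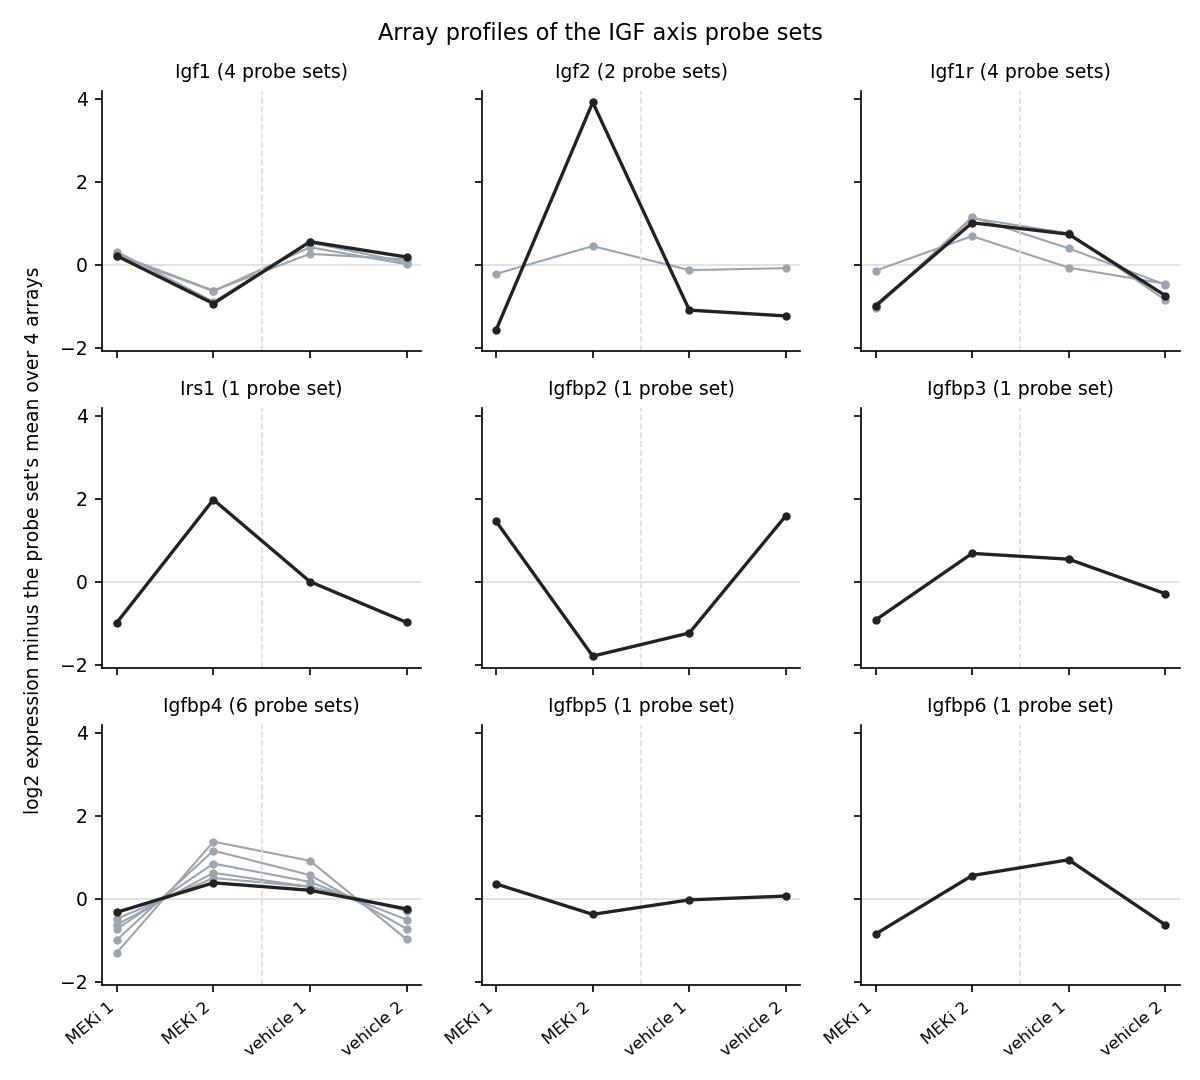
Log2 expression of each probe set minus its mean over the 4 arrays (vertical axis) by array as labelled (horizontal axis), with 1 panel a gene, the black line for the probe set that stands for the gene and grey lines for its other probe sets. Igf1r, Irs1, Igfbp3, Igfbp4 and Igfbp6 are high in MEKi 2 and low in MEKi 1, Igfbp2 is high in MEKi 1 and vehicle 2, and Igf1 is lowest in MEKi 2.

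By label, 0 of the 21 probe sets were called by limma (p under 0.05 with an adjusted p under 0.1 and more than 1.5-fold), as were 0.0% of the 45037 tested, and no adjusted p was under 1. Before adjustment, 0 of the 21 had a p under 0.05, against 0.901% of all probe sets (406), and the lowest unadjusted p of a member in that limma fit was 0.199. An exact permutation test of 2 arrays against 2 could not go below a two-sided p of 0.333. In 0 of 21 probe sets did both MEKi arrays lie above both vehicle arrays, as they did in 12.1% of all probe sets. Likewise, both MEKi arrays lay below both vehicle arrays in 0 of 21, and in 9.86% of all. The MEKi mean was higher in 4 of the 9 genes and lower in 5, with a median fold change of −0.03, against 0.01 over all genes. The member median was 0.41 without MEKi 1, −0.40 without MEKi 2, 0.27 without vehicle 1 and −0.17 without vehicle 2.

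**Figure D3:**
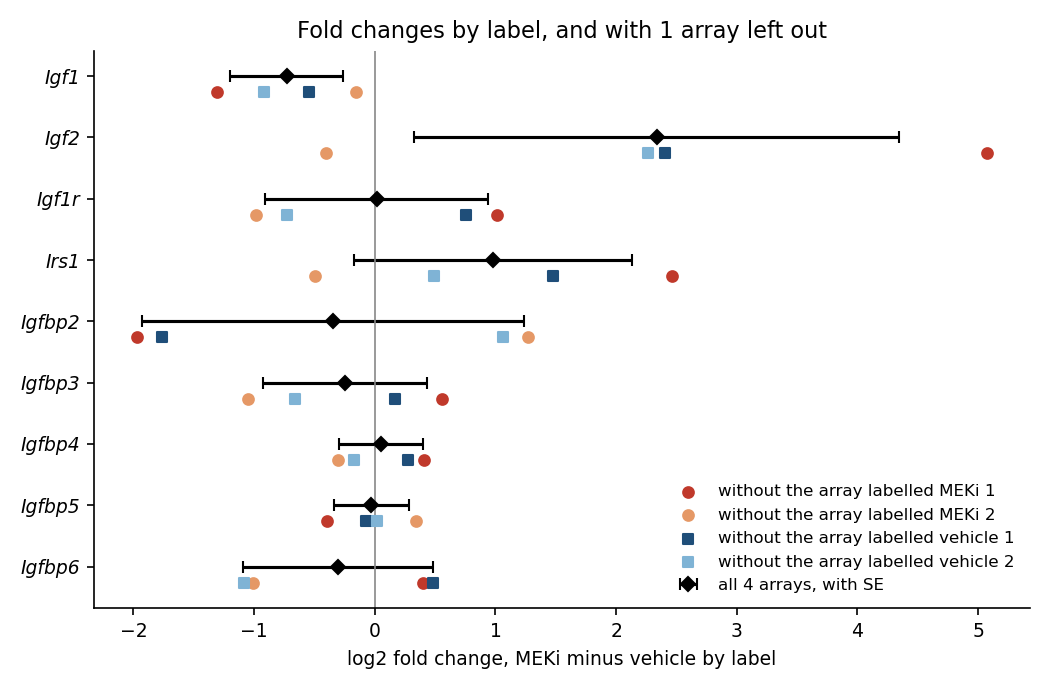
Log2 fold change of MEKi over vehicle by label (horizontal axis, mean difference) for the 9 IGF axis genes, with black diamonds and SE bars for all 4 arrays and coloured points for the fit without the array named. Igf1 stays below 0 in each fit, and the other 8 genes lie on both sides of 0.

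The members varied more between single arrays than most genes, in a comparison that was not matched for level. Many of all probe sets lie near the floor, where differences are compressed. The range over the 4 arrays was at least 1 log2 unit in 16 of 21 probe sets (7 of 9 genes), against 22.0% of all probe sets, with a median range of 1.79 over the 9 genes and 0.55 over all genes. Probe sets of a gene read the same transcripts and are not separate evidence. The order MEKi 2, vehicle 1, vehicle 2, MEKi 1 from high to low was found in 12 of the 21 probe sets, against 11.3% of all. These were 6 of Igfbp4, 3 of Igf1r and 1 each of Igf2, Irs1 and Igfbp3, thus 5 of the 9 genes.

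Counts of differences past 1 log2 unit depended on which arrays were set against each other. With MEKi 1 against vehicle 1, 1 of 21 probe sets was over by that much (5.61% of all probe sets) and 8 were under (7.02%). The 1 over was Igfbp2, and the 8 under belonged to Igf1r, Igfbp3, Igfbp4 and Igfbp6. With MEKi 1 against vehicle 2, 0 were over (0.386% of all) and 0 under (0.548%). With MEKi 2 against vehicle 1, 2 were over (1.59%), Igf2 and Irs1, and 3 were under (3.52%), all of Igf1. With MEKi 2 against vehicle 2, 10 were over (6.9%) and 2 under (7.27%), which were of Igf1 and Igfbp2. These comparisons share arrays, have 1 array on each side and carry no test.

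Genes with the closest array profiles were found by the root mean square distance between profiles centred on their mean over the 4 arrays, among 10577 genes. For Igf1r these were Bace1, the beta-secretase, at a distance of 0.019, Dixdc1 at 0.035 and Zfhx3 at 0.038. Bace1 read 7.14 in MEKi 1 and 9.12 in MEKi 2, against 8.82 in vehicle 1 and 7.34 in vehicle 2. Igfbp3 was closest to Pbk, a mitotic kinase, at 0.020, then to Hoxd10 at 0.021 and Dock5 at 0.038. Igfbp6 was closest to Flt1, a VEGF receptor of endothelium, at 0.023, then to Apoc2 at 0.054 and Arhgef5 at 0.067. Flt1 read 6.79 in MEKi 1 and 8.22 in MEKi 2, against 8.54 in vehicle 1 and 7.03 in vehicle 2. With 4 arrays many genes lie close together, so nearness is a description of these arrays only.

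The other members had other neighbours. Igf1 was closest to Creb3l1 at 0.031, Cd80 at 0.063 and Cish, a cytokine-induced inhibitor of STAT signaling, at 0.076. Igfbp2 was closest to Klhl6, a gene of B cells, at 0.040, then to Sgpp2 at 0.083 and Hook1 at 0.105. Klhl6 read 10.94 in MEKi 1 and 7.73 in MEKi 2, against 8.31 in vehicle 1 and 11.04 in vehicle 2. Irs1 was closest to Epb41l5 at 0.090, Speg at 0.098 and Ocstamp at 0.109. Igf2 had no close match, as its 3 nearest genes were Kank4 at 0.50, Ccn4, a matricellular protein, at 0.53 and Lbp, the lipopolysaccharide binding protein, at 0.60. Ccn4 read 7.64 in MEKi 1 and 12.04 in MEKi 2, against 8.33 in vehicle 1 and 7.21 in vehicle 2.

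Of 17 other IGF axis genes, 13 had a probe set, 8 of these were under 5 on every array, and 0 were called. Their fold changes were above 0 in 8 and below 0 in 5, with a median of 0.07. The largest fold changes in size were those of Stc2 and Stc1, which encode secreted stanniocalcins that inhibit PAPP-A. Stc2 read 7.40 in MEKi 1 and 4.59 in MEKi 2, against 7.54 in vehicle 1 and 7.68 in vehicle 2, a fold change of −1.62 ± 1.04 (SE, adjusted p = 1). Stc1 read 7.83 in MEKi 1 and 9.35 in MEKi 2, against 7.96 in vehicle 1 and 7.35 in vehicle 2, a fold change of 0.93 ± 0.62 (SE, adjusted p = 1). In both, the array that stood apart was MEKi 2. Irs4 (0.52) and Igf2bp1 (0.39), which encodes an mRNA-binding protein of Igf2 transcripts, followed in fold change. Irs4 was near the floor on every array. Igf2bp1 read 5.27 in MEKi 2 and was near the floor on the other arrays. Pappa, which encodes PAPP-A itself, stayed near the floor, between 3.89 and 3.97 in the MEKi arrays and between 4.07 and 4.08 in the vehicle arrays. The insulin receptor gene Insr was nearly level, at 8.82 in MEKi 1 and 9.08 in MEKi 2, against 9 in vehicle 1 and 8.94 in vehicle 2. Ghr, the growth hormone receptor, read 9.98 in MEKi 1 and 10.98 in MEKi 2, against 11.51 in vehicle 1 and 10.05 in vehicle 2.

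Downstream of the receptor, 23 of 27 adaptor, PI3K and AKT genes had a probe set and 0 were called, with 15 fold changes above 0, 8 below and a median of 0.04. Their median level was 8.90 in MEKi 1 and 8.96 in MEKi 2, against 8.93 in vehicle 1 and 9.16 in vehicle 2. Grb14 and Grb10 encode adaptors that inhibit insulin and IGF receptor signaling. Grb14 read 5.41 in MEKi 1 and 7.45 in MEKi 2, against 5.12 in vehicle 1 and 5.42 in vehicle 2, a fold change of 1.16 ± 0.77 (SE, adjusted p = 1). Grb10 read 8.19 in MEKi 1 and 8.03 in MEKi 2, against 8.72 in vehicle 1 and 8.43 in vehicle 2, a fold change of −0.46 ± 0.20 (SE, adjusted p = 1). Grb10 was lower in both MEKi arrays than in either vehicle array, which was not so for any of the 9 members. Among the 23 genes, both MEKi arrays lay below both vehicle arrays in 2 and above them in 1. Among all probe sets the shares were 9.86% below and 12.1% above. The AKT-inhibited transcription factors Foxo3 (0.42) and Foxo1 (0.38) came next in size of fold change, and Foxo1 was near the floor.

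Some marker lists had a higher median in MEKi 2 and vehicle 1 than in the other arrays, like Igf1r, Igfbp3, Igfbp4 and Igfbp6. These were the blood endothelial, the macrophage and monocyte, and the proliferation lists. Irs1 and Igf2 also had MEKi 2 and vehicle 1 as their highest arrays, but with MEKi 2 far above vehicle 1. The 9 of 9 blood endothelial genes had a median of 7.98 in MEKi 1 and 8.99 in MEKi 2, against 8.93 in vehicle 1 and 8.25 in vehicle 2, with a summed level between 11.28 and 11.75 in the MEKi arrays and between 11.33 and 11.90 in the vehicle arrays. This did not hold for each gene, as MEKi 2 was above vehicle 2 in 5 of the 9 endothelial genes and below it in Pecam1, Vwf, Tek and Kdr. Pecam1, an endothelial adhesion molecule, read 9.59 in MEKi 1 and 8.99 in MEKi 2, against 9.46 in vehicle 1 and 9.20 in vehicle 2. The 10 of 10 macrophage and monocyte genes had a median of 9.66 in MEKi 1 and 10.39 in MEKi 2, against 10.92 in vehicle 1 and 10.01 in vehicle 2, with a summed level between 13.85 and 14.33 in the MEKi arrays and between 14.29 and 15.04 in the vehicle arrays. In this list MEKi 2 was above vehicle 2 in 8 of 10 genes and above vehicle 1 in 0 of 10. The median of 7 of 8 proliferation genes was 10.19 in MEKi 1 and 10.63 in MEKi 2, against 11.09 in vehicle 1 and 10.43 in vehicle 2. Of these 7 genes, MEKi 2 was above vehicle 2 in 4 and above vehicle 1 in 2. The median of the MAPK output genes, given above, also had these high and low arrays. MEKi 2 was above vehicle 2 in 15 of those 17 genes, but not in Egr1 or Ereg. Egr1 was highest in vehicle 2, at 10.44, and Ereg was at the floor on every array. The 9 of 12 ubiquitous genes used as references had a median between 13.21 and 13.32 in the MEKi arrays and between 13.19 and 13.35 in the vehicle arrays. The part of these cells, or of proliferation, in the values of the IGF axis genes was not tested.

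**Figure D4:**
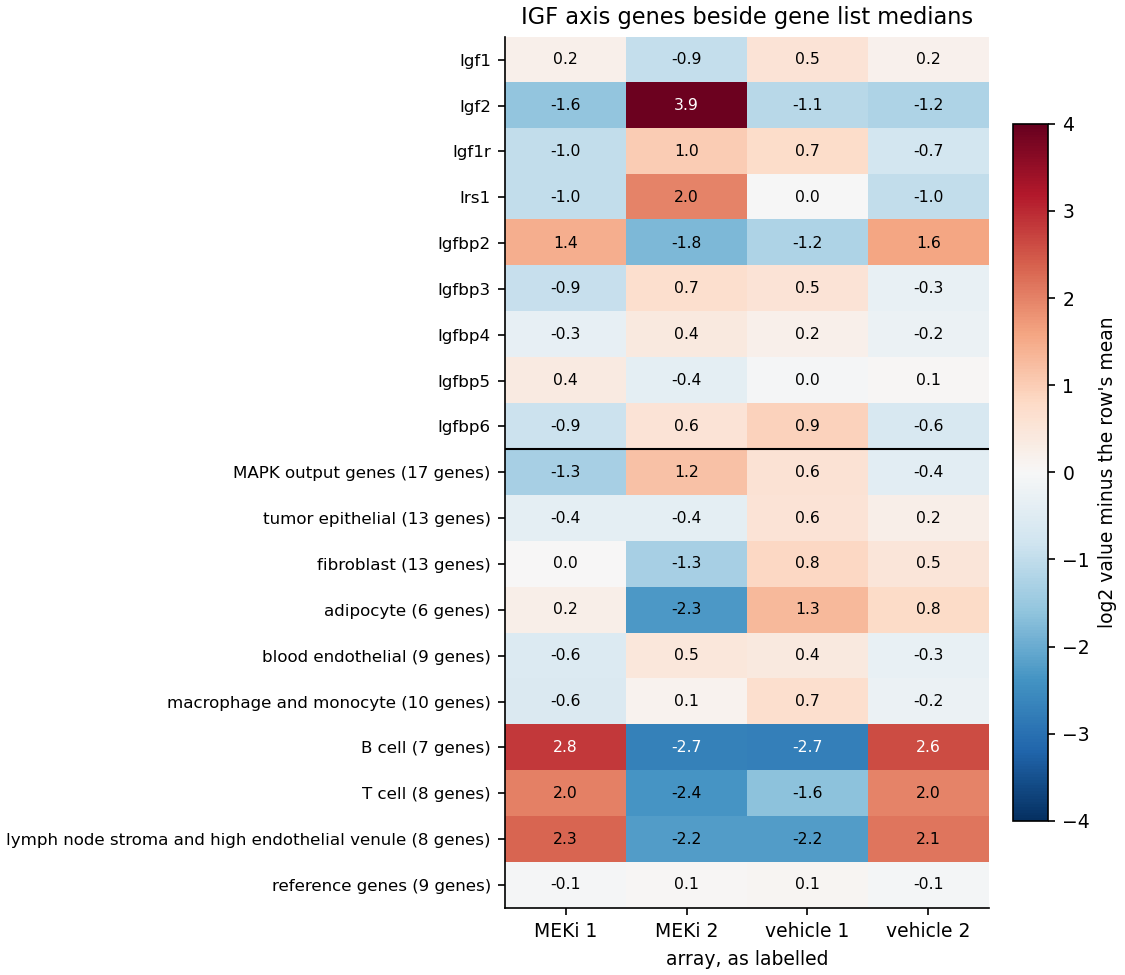
Log2 value minus the row's mean over the 4 arrays (colour and printed number) for the 9 IGF axis genes, above the line, and for the medians of gene lists, below it, by array as labelled. B cell, T cell and lymph node rows share their high arrays, MEKi 1 and vehicle 2, with Igfbp2, and the MAPK output row shares MEKi 2 and vehicle 1 with Igf1r.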

How the data were processed

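Total RNA of 4T1Ch9 tumors was hybridised to Affymetrix MG-430PM arrays. The authors deposited log2 expression values per probe set, made by RMA with quantile normalization in the AFFY package, versions not given in the sources used here. Scanner files were not used. Of 45141 probe sets, 104 controls were left out. Of 45037 tested, 28898 have 1 gene symbol, 551 several (not named) and 15588 none listed here, which gave 17097 genes. No batch is named in the sources used here. The number of arrays limits the precision.

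Groups followed the labels. All probe sets entered a limma 3.58.1 fit (lmFit, eBayes; R 4.3.3), two-sided, with Benjamini-Hochberg adjustment over all tested probe sets. The fit code was checked on simulated data, and recovery of changes was required only at a small spread within labels. That check does not show which changes could be found at the spread of these arrays. A call needed p under 0.05, fold change over 1.5 and adjusted p under 0.1. Named were all members, the 3 closest genes of members spanning at least 1 log2 unit (among genes with a mean over the median of all probe sets), and up to 4 genes of each other list by size of fold change each. Other genes were named with their values in view. The members and lists were chosen with earlier results of these data known. The alternatives changed the threshold (adjusted p under 0.05), the variance model (intensity trend, or no moderation), the filter (without the dimmest 25% of probe sets) and the samples or scaling: centring on reference genes, a replicate block, leaving out each array, and other summaries of probe sets. Promoter windows came from RefSeq (GRCm38.p6). Tables and plots were made in Python 3.11.15 (numpy 2.4.6; pandas 2.3.3; matplotlib 3.10.9).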

Additional observations from a re-analysis of the deposited data

How the results depend on the processing

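In the 11 alternatives that count probe sets, 0 probe sets were called by limma, and 0 members. With probe sets averaged per gene, 0 of 17097 genes were called, and 164 had a p under 0.05. Before adjustment, 406 probe sets had a p under 0.05 by label, 683 with an intensity trend, 1189 without moderation, 243 without the dimmest 25%, 335 with centring on reference genes and between 80 (without vehicle 1) and 2027 (without MEKi 1) with an array left out. With the replicate block, 0 were called and 267 had a p under 0.05. The numbers are given no pairing by the labels, and deviations of MEKi 1 and vehicle 1 from their group means correlated at −0.764 across probe sets. With the crossed replicate block, chosen after seeing the data, 0 were called and 1447 had a p under 0.05.

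The member median of −0.03 ranged between −0.40 and 0.41 with an array left out, and was −0.02 with centring, which moved the median of all genes by under 0.1. In the other 72 single gene values 0 changed sign. Changes of threshold, variance model, filter or replicate block leave a fold change as it is, so those values could not turn. With an array left out, 14 of 36 values took the other sign, in 8 of 9 genes. The log2 fold changes then ranged between −0.40 and 5.08 for Igf2, −0.98 and 1.01 for Igf1r, −0.50 and 2.46 for Irs1, −1.97 and 1.27 for Igfbp2, −1.05 and 0.56 for Igfbp3, −0.31 and 0.41 for Igfbp4, −0.39 and 0.34 for Igfbp5, and −1.09 and 0.48 for Igfbp6. For Igf1 they ranged between −1.31 and −0.16. Averaging all probe sets of a gene gave 1.28 for Igf2, −0.53 for Igf1 and 0.19 for Igf1r. The cause of these differences was not tested. A group with 1 array was assumed to vary like the other. Readings near the array floor, such as those of 1415931_PM_at and 1452108_PM_at, have compressed differences.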
